A study of Homo sapiens with 9 samples.

Results

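Kinesins are motor proteins that walk along microtubules, using ATP to carry cargo or to move and trim the microtubules themselves. In dividing cells a set of mitotic kinesins builds the spindle, moves chromosomes and completes cytokinesis. In neurons another set carries vesicles, mitochondria and protein complexes down axons and dendrites, partly through light chains and adaptor proteins that tie the motors to their cargo. The genes described here are the 44 kinesin genes, of 34961 genes in the deposited table, whose symbol is KIF or KIFC with a number or KLC1 to KLC4 and whose transcript types include protein coding. KIF12 has a retained intron type alone in the table and was left out, and each of the 44 symbols stood on 1 row. By textbook role they were sorted into 13 mitotic motors, 13 axonal and dendritic cargo motors, 4 light chains, 6 cilium and centriole kinesins and 8 other kinesins. A count filter over the whole table kept 43 of them, all but KIF25. The naming rule itself used no level, but the members and role lists were chosen with earlier results of these data known.

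The cells came from WA09, an established human embryonic stem cell line, in which EGFP was knocked in at TPH2, the gene of neuronal tryptophan hydroxylase, the enzyme that starts serotonin synthesis. RNA was sequenced from 3 libraries of stem cells on Day0, 3 of cells labelled neural progenitors on Day21 and 3 of cells labelled TPH2+ serotonin neurons on Day42. All 9 libraries share the TPH2-EGFP genotype and a treatment label naming serotonin neuron induction. The sources used here do not say whether the reporter was used to sort the Day42 cells, or whether libraries of a day came from separate differentiations, so p-values rest on differences among libraries that could be purely technical. Because the RNA is from bulk samples, fewer cells of a type and less RNA per cell cannot be told apart.

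Total counts ran between 58526466 and 69658328 per library, yet the number of genes with a count differed: 22198 to 24359 on Day0, 24581 to 24741 on Day21, and 16077, 17101 and 10797 in Day42 replicates 1, 2 and 3. Kinesin genes with a count numbered 41 to 44 on Day0, 43 in each Day21 library and 30, 30 and 23 on Day42. Over all genes the biological coefficient of variation was 0.554 within Day0, 0.420 within Day21 and 1.86 within Day42, so the libraries of Day42 differed most among themselves. On Day42, 11 of the 43 tested kinesin genes (25.6%) had no count in at least 1 library and at least 100 counts in another, as did 28.7% of all genes tested, and 0 kinesin genes did so on Day0 or Day21. A count of 0 in all 3 Day42 libraries was found for 7 of the 43 (KIF11, KIF18A, KIF18B, KIF4A, KIF19, KIF24 and KLC3), near the 17% of all genes tested. The summed level of 4 cycling-cell markers was 774 to 1255 CPM (counts scaled to library size, here with TMM factors) on Day0, 824 to 890 on Day21 and 0.178 to 19.3 on Day42. Summed neuron markers lay at 40.6 to 119, 563 to 908 and 4173 to 5214 CPM on those days. Of these 7 markers, TUBB3 overlapped between Day21 (201, 507 and 163 CPM) and Day42 (387, 71.9 and 299 CPM). Each other marker of that list was higher in every Day42 library than in any Day21 library. TPH2 was at 98.0 to 137 CPM on Day42 and at most 1.47 on Day0 and Day21, whereas SLC6A4, the serotonin transporter and another defining marker, had no count in any Day42 library. SLC18A2, also a listed serotonin marker, had 97.3, 111 and 0.771 CPM on Day42, while FEV and DDC were at 272 CPM or more in every Day42 library. Of 4 glial markers, GFAP and AQP4 had no count on Day42, and 4 mesenchyme markers summed to 19.4 to 31.3 CPM on Day0, 471 to 504 on Day21 and 93.2 to 126 on Day42. The part of these other cell types in the kinesin values was not tested.

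**Figure D1:**
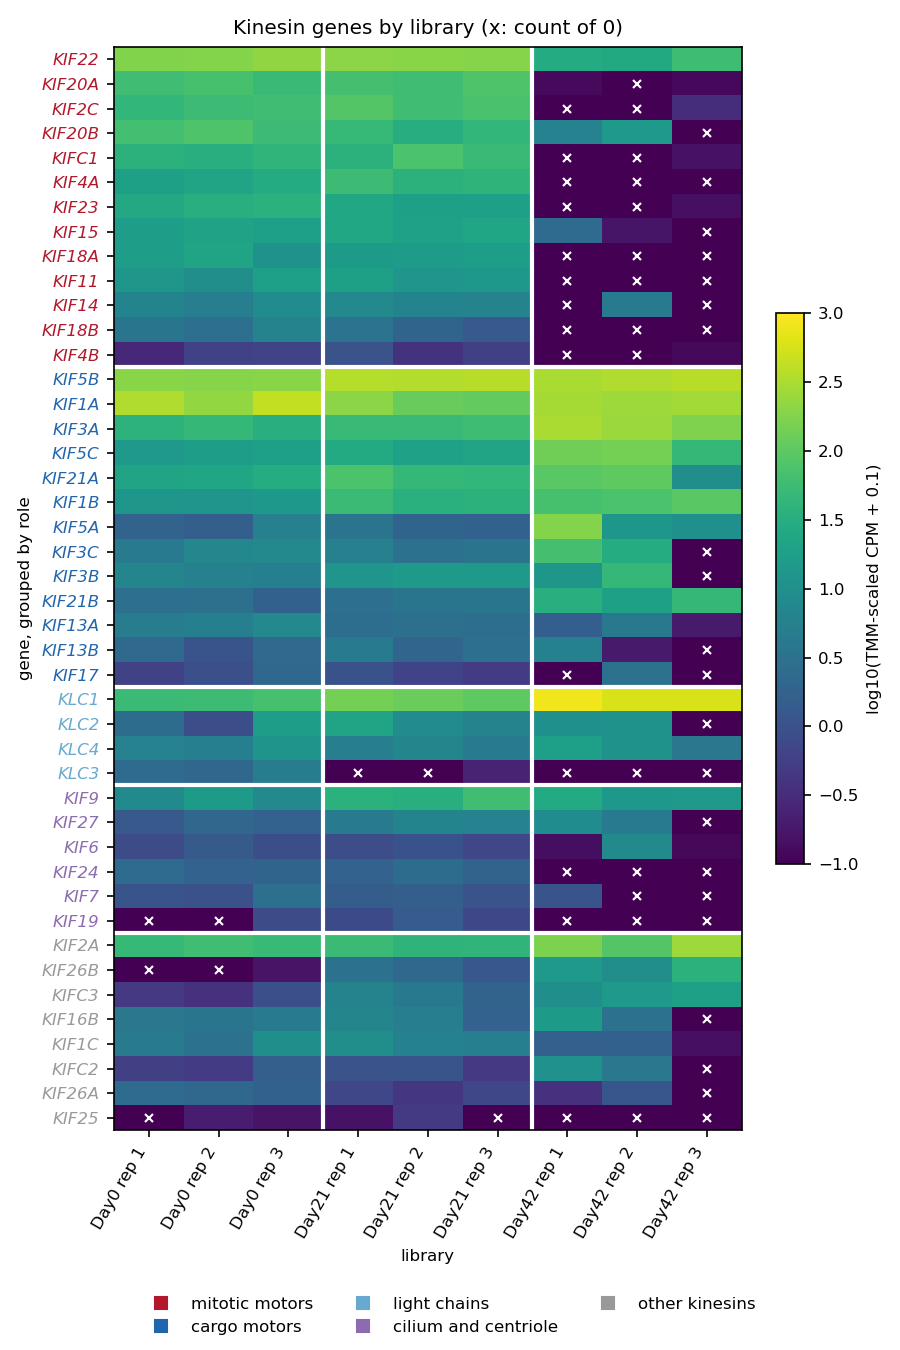
TMM-scaled CPM of the 44 kinesin genes (rows, grouped by role) in each of the 9 libraries (columns), colored on a log10 scale after adding 0.1, with a cross where the count was 0. Among the 13 mitotic motors only KIF22 keeps a bright color in all 3 Day42 libraries, whereas KIF5B, KIF1A, KIF3A and KLC1 are bright there.

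None of the 13 mitotic motors was called between Day21 and Day0, where only 1.32% of all genes tested were called higher and 1.18% lower. On Day42, 10 of the 13 were called lower than on Day21, as were 19.7% of all genes tested. Of these mitotic motors, 4 had a count of 0 in every Day42 library. KIF11 (Eg5), the motor that pushes spindle poles apart, had 13.1, 9.26 and 17.7 CPM on Day0, 18.4, 12.2 and 13.3 CPM on Day21 and no count in any Day42 library. KIF4A, a chromosome-bound motor that also shortens the central spindle, had 18.9, 21.8 and 28.3 CPM on Day0, 55.3, 36.6 and 39.4 CPM on Day21 and no count on Day42. KIF18A, which damps chromosome movement at the metaphase plate, had 16.5, 22.0 and 11.4 CPM on Day0, 14.8, 16 and 17.6 CPM on Day21 and no count on Day42. For each of these the Day42 libraries lay wholly below those of both earlier days. The folds given next use a limit that covers counting error only, and not the spread among Day42 libraries. Against a limit of 12 counts per library, the drop relative to Day21 was at least 100.3-fold for KIF11, at least 110.57-fold for KIF18A and at least 300.2-fold for KIF4A (edgeR adjusted p = 0.00078, 0.00064 and 0.00029). KIF18B, a microtubule plus-end motor, was also at 0 in all Day42 libraries, after 3.43, 2.80 and 6.07 CPM on Day0 and 3.28, 1.84 and 1.23 CPM on Day21, and was at least 14.5-fold lower than on Day21 (edgeR adjusted p = 0.0031).

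The promoters of these genes are shown because cell cycle genes often carry a TTTGAA element (the cell cycle genes homology region) just downstream of a CCAAT box, so the letters let the mitotic and cargo motors be compared in a readout that expression did not enter. The windows run from 250 bases before to 50 bases after the annotated start, from RefSeq on GRCh38.p14, written 5′ to 3′ on the gene's strand. Capitals mark TTTGAA, which reads TTCAAA when it lies on the other strand. They also mark CCAAT, which then reads ATTGG. E2F letters, capitalized on either strand, were TTTCGCG and, as a second form, TTTGGCG. The windows are KIF11 at chr10:92592880-92593179, plus strand, KIF18A at chr11:28108107-28108406, minus strand, KIF4A at chrX:70289854-70290153, plus strand, KIF23 at chr15:69414099-69414398, plus strand. They hold both a CCAAT and a TTTGAA, starting 25 bases apart in KIF11, 35 in KIF18A, 24 in KIF4A and 9 in KIF23.
KIF11: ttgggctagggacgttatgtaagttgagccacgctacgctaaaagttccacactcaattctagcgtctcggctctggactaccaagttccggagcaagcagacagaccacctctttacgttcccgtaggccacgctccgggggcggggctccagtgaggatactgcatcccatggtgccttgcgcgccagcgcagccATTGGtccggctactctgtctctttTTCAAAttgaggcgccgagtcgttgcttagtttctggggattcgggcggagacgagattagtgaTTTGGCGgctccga
KIF18A: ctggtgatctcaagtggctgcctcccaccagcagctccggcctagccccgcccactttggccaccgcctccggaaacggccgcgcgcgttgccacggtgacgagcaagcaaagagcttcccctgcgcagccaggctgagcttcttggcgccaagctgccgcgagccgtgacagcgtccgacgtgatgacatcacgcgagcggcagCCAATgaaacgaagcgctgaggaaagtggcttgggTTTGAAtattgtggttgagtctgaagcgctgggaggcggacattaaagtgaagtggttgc
KIF4A: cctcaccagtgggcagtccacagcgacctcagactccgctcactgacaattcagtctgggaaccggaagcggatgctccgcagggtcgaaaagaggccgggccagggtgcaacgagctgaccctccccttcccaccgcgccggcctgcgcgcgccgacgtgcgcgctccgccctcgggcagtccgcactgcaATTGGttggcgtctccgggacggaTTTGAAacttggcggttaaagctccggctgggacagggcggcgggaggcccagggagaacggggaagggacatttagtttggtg
KIF23: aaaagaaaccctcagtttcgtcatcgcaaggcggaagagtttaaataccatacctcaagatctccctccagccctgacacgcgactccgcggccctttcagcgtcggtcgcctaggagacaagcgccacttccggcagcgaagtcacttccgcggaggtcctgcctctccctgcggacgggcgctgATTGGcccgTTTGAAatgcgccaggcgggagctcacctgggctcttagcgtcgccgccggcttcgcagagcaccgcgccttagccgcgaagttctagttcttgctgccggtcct

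KIF22 and KIF20A are mitotic motors whose windows hold CCAAT and no TTTGAA, and KIF3A and KIF5B are the cargo motors that led the Day42 levels per length, without and with those letters. Their windows are KIF22 at chr16:29790501-29790800, plus strand (the first of its pair of windows), KIF20A at chr5:138178862-138179161, plus strand, KIF3A at chr5:132737497-132737796, minus strand and KIF5B at chr10:32056376-32056675, minus strand. In KIF5B the TTTGAA stands upstream of the CCAAT box, in the opposite order to the mitotic windows shown above.
KIF22: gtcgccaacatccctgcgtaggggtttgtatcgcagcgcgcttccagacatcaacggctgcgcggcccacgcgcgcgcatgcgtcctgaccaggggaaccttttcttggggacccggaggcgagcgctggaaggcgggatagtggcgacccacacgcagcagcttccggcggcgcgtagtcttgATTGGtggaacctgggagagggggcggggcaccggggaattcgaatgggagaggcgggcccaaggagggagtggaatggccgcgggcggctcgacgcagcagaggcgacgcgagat
KIF20A: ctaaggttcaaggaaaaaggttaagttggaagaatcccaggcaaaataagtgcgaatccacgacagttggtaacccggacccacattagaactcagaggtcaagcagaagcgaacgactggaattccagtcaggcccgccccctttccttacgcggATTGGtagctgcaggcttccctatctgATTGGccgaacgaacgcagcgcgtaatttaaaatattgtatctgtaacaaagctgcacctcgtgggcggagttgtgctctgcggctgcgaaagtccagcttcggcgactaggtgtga
KIF3A: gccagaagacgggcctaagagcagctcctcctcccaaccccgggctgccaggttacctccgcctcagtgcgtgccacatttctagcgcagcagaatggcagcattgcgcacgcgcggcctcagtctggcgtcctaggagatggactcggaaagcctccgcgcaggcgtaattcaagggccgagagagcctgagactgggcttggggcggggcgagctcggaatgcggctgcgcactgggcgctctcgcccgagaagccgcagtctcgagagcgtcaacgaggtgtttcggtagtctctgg
KIF5B: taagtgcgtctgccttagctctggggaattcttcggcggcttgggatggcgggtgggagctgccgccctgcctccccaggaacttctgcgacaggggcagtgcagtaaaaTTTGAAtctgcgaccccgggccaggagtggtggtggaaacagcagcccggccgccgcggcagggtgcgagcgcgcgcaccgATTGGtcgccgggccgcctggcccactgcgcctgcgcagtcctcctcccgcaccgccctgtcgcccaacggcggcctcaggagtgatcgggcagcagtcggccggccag

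RefSeq windows were matched for 34 of the 44 genes, among them all 13 mitotic motors and 10 of the cargo motors. Counted by gene, TTTGAA was present in 10 of the 13 mitotic motors and in 1 of 10 cargo motors (KIF5B), against 18.2% of 27305 genes with a window. CCAAT was present in 11 of 13 mitotic and 4 of 10 cargo motors, against 39.7% of all genes. Both were present, in any order and at any spacing, in 9 of 13 mitotic motors, against 7.26% of all genes. Among cargo motors KIF5B alone held both. In those mitotic motors their starts lay 9 to 122 bases apart, and under 60 apart in 8. The E2F letters were in 2 of 13 and 2 of 10, against 3.85%, and TATAAA, searched as a contrast, was in 1 of 13 and 0 of 10, against 14.0%. These counts describe letters and not binding sites. The mitotic motors without TTTGAA were KIF2C, KIF20A and KIF22, and their Day42 levels differed from each other as given next.

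Of the 13 mitotic motors, all of which passed the count filter, 10 were called lower on Day42 than on Day21 and 0 higher, where 19.7% of 20156 genes were called lower and 6.52% higher. A call needs a Benjamini-Hochberg adjusted p under 0.05 over all genes and a log2 fold change of at least 1 in size. All 13 had every Day42 library below every Day21 library, a pattern seen in 34.7% of genes tested. The median log2 fold change over the 13 was −10.11, or −6.65 with the 4 genes at 0 set to their bounds, against −0.54 over all genes tested. Against Day0, 10 of 13 were again called lower, where 23.4% of genes were called lower and 8.82% higher. KIF20A, which relocates the chromosomal passenger complex for cytokinesis, had 58.7, 67.5 and 50.1 CPM on Day0, 66.7, 60.03 and 77.9 CPM on Day21, and 2, 0 and 2 counts in the Day42 libraries. KIFC1, a minus-end motor that gathers spindle poles, had 36.5, 32.5 and 41.4 CPM on Day0, 37.4, 72.5 and 49.3 CPM on Day21, and 0, 0 and 5 counts on Day42. KIF23, the motor of the centralspindlin complex, had 26.2, 31.7 and 35.4 CPM on Day0, 24.6, 18.9 and 17.9 CPM on Day21, and 0, 0 and 4 counts on Day42. All 3 were called lower (edgeR adjusted p = 0.00024, 0.0015 and 0.0021 against Day21), and their few Day42 counts are too low to give a fold. KIF2C, which strips tubulin from microtubule ends, behaved likewise, with 52.6 ± 7.76 CPM on Day0, 71.1 ± 12.4 on Day21 (SD, n = 3 each) and 0, 0 and 20 counts on Day42.

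KIF22, a chromosome-arm motor, had the smallest change of the 10 called mitotic motors. It was at 177, 180 and 213 CPM on Day0, 204, 197 and 187 CPM on Day21 and still at 28.6, 26.4 and 57.1 CPM on Day42. The Day42 libraries lay below all others, and the change of −2.39 ± 0.33 on the log2 scale against Day21 (edgeR adjusted p = 0.0021) was called in 17 of 17 alternatives. Per length, KIF22 made up 35.3% to 39.9% of the summed mitotic FPKM (fragment counts scaled by transcript length and library size) on Day0, 33.6% to 35.8% on Day21, and 83.6%, 69.2% and 99.3% on Day42. KIF20A and KIF2C also lack the exact letters TTTGAA in their windows and were at or near 0 on Day42. Variants of the element were not searched, and a link between it and the Day42 levels was not tested. The KIF22 span overlaps an annotated model on the other strand, and no source used here says whether counting respected strand.

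KIF14, KIF15 and KIF20B had all 3 Day42 libraries below those of Day21 and were not called, and each had no count in at least 1 Day42 library and at least 100 counts in another. KIF14, which recruits citron kinase at cytokinesis, had 0, 4.21 and 0 CPM on Day42, against 7.42, 6.36 and 6.07 CPM on Day21 (−2.24 ± 2.10 on the log2 scale, edgeR adjusted p = 0.52). KIF15, which backs up KIF11 on spindle fibers, had 2.42, 0.0707 and 0 CPM on Day42, against 24.9, 19.1 and 23.1 CPM on Day21 (−4.75 ± 1.80, edgeR adjusted p = 0.089). KIF20B, a motor of late cytokinesis, had 5.74, 14.6 and 0 CPM on Day42, against 47.7, 30.8 and 44.96 CPM on Day21 (−2.60 ± 1.56, edgeR adjusted p = 0.28). Leaving out a Day42 library changed each of these calls. Without replicate 2, KIF14 was called lower (edgeR adjusted p = 0.0016). Without replicate 3, KIF15 and KIF20B were called lower (edgeR adjusted p = 0.029 and 0.011), and 12 of 13 mitotic motors passed. KIF4B, an intronless copy of KIF4A at 0.578 ± 0.353 CPM on Day21 (SD, n = 3), shares 14.0% of its 50-base words with KIF4A, so its reads may be divided between them. Its call on Day42 against Day21 (edgeR adjusted p = 0.017) was lost without Day21 replicate 1 (edgeR adjusted p = 0.061).

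Genes whose proteins work with the mitotic motors were called lower more often than higher. Of 17 partners listed, 9 were called lower on Day42 than on Day21 and 10 lower than on Day0, with 0 higher in either, where 19.7% and 23.4% of all genes tested were called lower. Their median log2 fold change was −6.10 against Day21. Against Day0 it was −6.71, or −5.81 with genes at 0 set to their bounds. ANLN, an organizer of the cleavage furrow, had 14.7, 20.9 and 23.8 CPM on Day0, 31.9, 23.1 and 23.1 CPM on Day21 and no count on Day42, at least 178.66-fold lower than on Day21 (edgeR adjusted p = 0.00042). INCENP, the scaffold of the chromosomal passenger complex that KIF20A carries, was also at 0 in all Day42 libraries, at least 98.6-fold lower than on Day21. CENPE, itself a kinesin of the kinetochore whose symbol falls outside the naming rule, stayed measurable like KIF22. It had 7.81, 7.09 and 8.83 CPM on Day42, against 45.5, 31.5 and 35.7 CPM on Day21, a change of −2.25 ± 0.38 on the log2 scale (edgeR adjusted p = 0.0041). All 3 Day42 libraries held CENPE, and all lay below every library of the earlier days. PRC1, a binder of antiparallel microtubules in the central spindle, had 23.4, 4.65 and 0 CPM on Day42, against 117, 94.3 and 95.7 CPM on Day21, and was not called. TPX2, another of the 17 partners, had 0, 0.189 and 72.8 CPM on Day42, against 141, 127 and 142 CPM on Day21. Its Day42 reads thus came almost wholly from replicate 3.

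**Figure D2:**
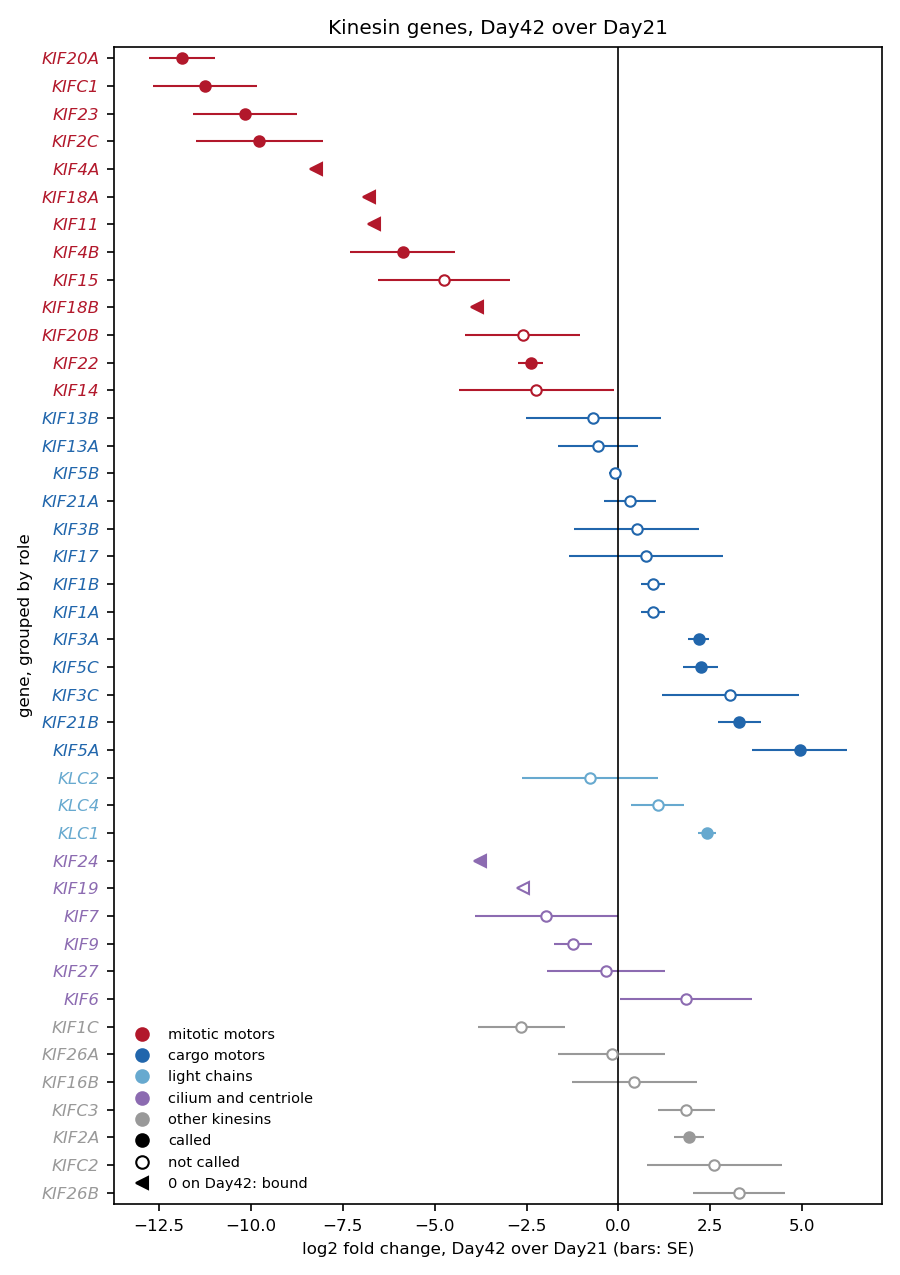
Log2 fold change of Day42 over Day21 for the tested kinesin genes other than KLC3, which was near 0 on both days, grouped by role, with bars for the standard error. Filled points were called, open points were not, and triangles mark lower bounds on the decrease of genes at 0 in all Day42 libraries, KIF19 among them without a call; all mitotic points lie left of 0.

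Between Day21 and Day0 few kinesin genes passed the test. With all 9 libraries in the fit, 1 of 43 tested kinesin genes was called higher on Day21 and 0 lower, where 1.32% of genes were called higher and 1.18% lower. At an unadjusted edgeR p under 0.05, 6 were higher and 2 lower, with 0 mitotic motors among them. The share of all genes at that unadjusted threshold is not given here, so these counts cannot be set against it. DESeq2 called 5 kinesin genes higher and 2 lower, where it called 1389 of all genes higher and 1563 lower. The shared fit brings the spread of the Day42 libraries into this comparison. With the libraries of these 2 days alone, 8 were called higher and 4 lower, where 13% of 19541 genes were called higher and 12.6% lower, so the members' shares were near those of all genes. The 8 were KIF1B, KIF21A, KIF26B, KIF27, KIF3B, KIF9, KIFC3 and KLC1, and the 4 were KIF13A, KIF1A, KIF26A and KLC3, with no mitotic motor among them. The median log2 fold change was 0.13 over mitotic motors and 0.43 over cargo motors, against 0.03 over all genes tested. KIF1B, a carrier of mitochondria and synaptic vesicle precursors, was the gene called with all libraries. It had 12.8, 12.2 and 13.7 CPM on Day0, 52.7, 34.2 and 37.4 CPM on Day21 and 69.0, 73.2 and 95.8 CPM on Day42. The Day21 libraries lay above those of Day0 by 1.68 ± 0.33 on the log2 scale (edgeR adjusted p = 0.037). Of 17 alternatives, 10 lost that call, including every fit with a single Day0 or Day21 library left out (edgeR adjusted p between 0.12 and 0.19). On Day42 KIF1B was higher than on Day0 by 2.62 ± 0.34 (edgeR adjusted p = 0.0012), called in 17 of 17 alternatives.

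On Day42 the cargo motors were uneven. Of the 13, all tested, 4 were called higher than on Day21 and 0 lower (KIF21B, KIF3A, KIF5A and KIF5C), where 6.52% of genes were called higher. Against Day0, 5 were called higher and 0 lower, KIF1B being the addition, where 8.82% of genes were called higher. The median log2 fold change was 0.94 against Day21 and 1.75 against Day0, beside −0.54 and −0.57 over all genes tested. Uncalled members lay on both sides of 0, with KIF13A at −0.55 and KIF13B at −0.68 against Day21. Without Day42 replicate 3, KIF3C was called higher than on Day21 as well, and without Day42 replicate 1, KIF5A was not. The deposited FPKM are not TMM-scaled, and on that scale the median gene was 0.66 higher on Day42 against Day21, and 0.71 higher against Day0, on the log2 scale, than in TMM-scaled CPM. With limma on log2(FPKM + 1) over 10619 genes, 2110 genes were called higher and 1759 lower on Day42 than on Day21, where edgeR called 1315 higher and 3980 lower. Levels between genes are given below in FPKM and changes of a gene in CPM.

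The 3 heavy chains of kinesin-1, the motor of general anterograde transport, differed in when and how much they changed. KIF5B, the chain found in most tissues, had the highest mean FPKM of all 44 genes on Day21 and Day42 and was second to KIF22 on Day0. It was at 195, 189 and 192 CPM on Day0, 356, 352 and 371 CPM on Day21, and 309, 339 and 369 CPM on Day42. Its replicates were tight, and the Day21 libraries lay above those of Day0 by 0.90 ± 0.16 on the log2 scale (edgeR adjusted p = 0.025), under the size needed for a call. Between Day42 and Day21 it differed by −0.09 ± 0.16 in CPM, and by 0.56 as a log2 ratio of mean FPKM, so its direction depends on the scale. KIF5C, a chain found mainly in neurons, had 13.9, 17.3 and 17.8 CPM on Day0, 28.3, 19.4 and 21.5 CPM on Day21, and 135, 145 and 45.7 CPM on Day42. Every Day42 library lay above the rest, and the rise over Day21 was 2.24 ± 0.47 (edgeR adjusted p = 0.0094), lost without Day21 replicate 2 (edgeR adjusted p = 0.051). Over Day0 the rise was 2.73 ± 0.48 (edgeR adjusted p = 0.0036).

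KIF5A, the chain mutated in some hereditary spastic paraplegia, rose by a size that rested largely on a single Day42 library. It had 1.75, 1.52 and 5.43 CPM on Day0, 3.34, 1.83 and 1.63 CPM on Day21, and 184, 13.2 and 10.3 CPM on Day42. All Day42 libraries lay above the others, with replicate 1 far above replicates 2 and 3. The rise over Day21, 4.93 ± 1.29 (edgeR adjusted p = 0.023), was called in 8 of 14 alternatives and was 2.42 without Day42 replicate 1 (edgeR adjusted p = 0.061). That call was also lost when any Day21 library was left out, with the replicate block and with only the 2 days in the fit. The KIF5A span overlaps DCTN2 on the other strand, and DCTN2 had 74.6, 51.6 and 213 CPM on Day42. Whether reads of DCTN2 were counted for KIF5A was not tested. Per length, KIF5B made up 93.3% to 95.3% of kinesin-1 heavy chain FPKM on Day0 and 94.8% to 96.4% on Day21. On Day42 its share was 64.0%, 77.5% and 91.6% in replicates 1, 2 and 3, while KIF5C took 17.7%, 21.1% and 7.21%. The share of KIF5A was 18.3% in Day42 replicate 1 and 1.44% and 1.22% in the others, close to the 0.197% to 1.254% of the earlier days.

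**Figure D3:**
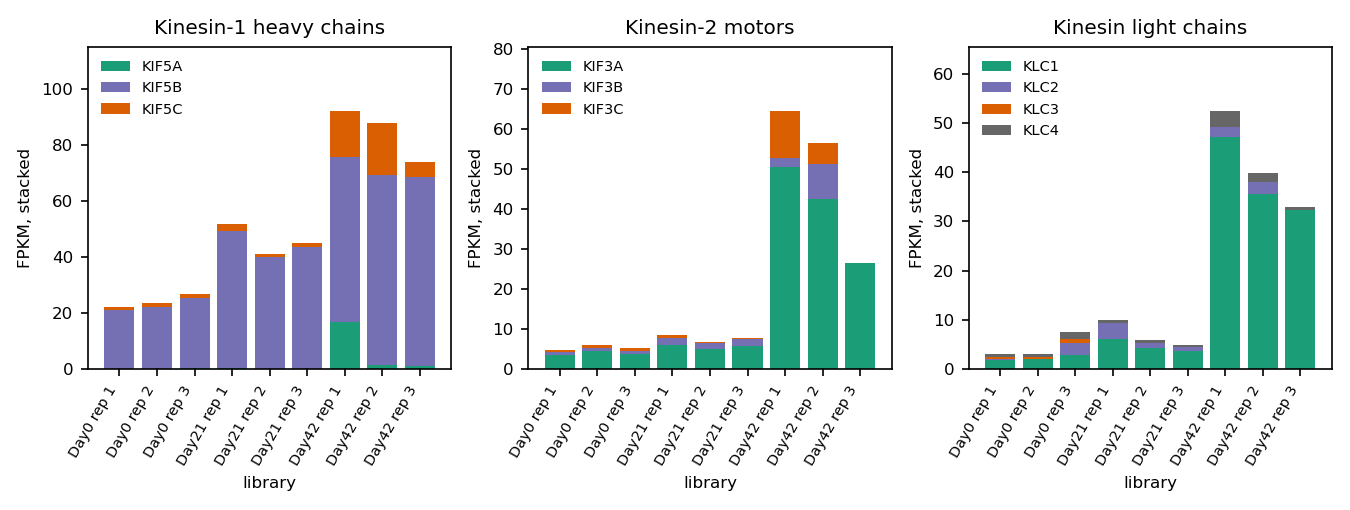
Deposited FPKM (y axis) of the kinesin-1 heavy chains, the kinesin-2 motors and the kinesin light chains, stacked by gene in each library (x axis, 3 libraries per day). KIF5B fills most of the kinesin-1 bars on Day0 and Day21 and gives way in part to KIF5C on Day42, KIF3A fills the whole bar of Day42 replicate 3, and KLC1 fills 89.0% to 98.1% of the light chain bars on Day42.

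Kinesin-2 is a trimer of KIF3A, either KIF3B or KIF3C, and the accessory subunit KIFAP3, and it serves both axons and cilia. KIF3A had 38.7, 45.9 and 33.4 CPM on Day0, 51.5, 50.6 and 57.4 CPM on Day21, and 310, 247 and 169 CPM on Day42. The rise over Day21, 2.19 ± 0.29 (edgeR adjusted p = 0.0018), was called in 17 of 17 alternatives, and so was the rise over Day0. KIFAP3 had 5.04, 2.78 and 3.25 CPM on Day0, 29.9, 30.2 and 26.7 CPM on Day21, and 444, 473 and 317 CPM on Day42. It rose in both steps, by 2.97 ± 0.30 from Day0 (edgeR adjusted p = 0.0024) and by 3.83 ± 0.32 from Day21 (edgeR adjusted p = 0.0003), each called in 17 of 17 alternatives. Both partners of KIF3A had no count in Day42 replicate 3. KIF3B had 12.8, 45.2 and 0 CPM on Day42, against 12.3, 14.7 and 14.2 CPM on Day21, and KIF3C had 66.2, 29.8 and 0 CPM on Day42, against 5.37, 2.98 and 3.31 CPM on Day21. Neither was called (edgeR adjusted p = 0.89 and 0.29), and without Day42 replicate 3 KIF3C was called higher by 3.63 (edgeR adjusted p = 0.0015). KIF17, the homodimeric member of the family that carries dendritic receptors in mouse neurons, was found on Day42 in replicate 2 alone, at 3.17 CPM, against 0.929, 0.548 and 0.398 CPM on Day21.

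KIF1A, the main carrier of synaptic vesicle precursors and dense-core vesicles, was already among the higher kinesins in the stem cells. It had 334, 223 and 430 CPM on Day0, 203, 119 and 109 CPM on Day21, and 288, 257 and 283 CPM on Day42. On Day0 only KIF22 and KIF5B had a higher mean FPKM among the 44 genes. The Day21 libraries were the lowest, and the Day42 libraries lay within the range of Day0. No comparison was called: Day21 against Day0 was −1.20 ± 0.32 (edgeR adjusted p = 0.076), Day42 against Day21 was 0.94 ± 0.32 (edgeR adjusted p = 0.060), and Day42 against Day0 was −0.25 ± 0.32 (edgeR adjusted p = 0.61). As a log2 ratio of mean FPKM, Day42 against Day0 was 0.43, so the sign of that last difference depends on the scale. With the libraries of Day21 and Day0 alone, the lower Day21 level was called (edgeR adjusted p = 0.032), and without Day21 replicate 1 the higher Day42 level was called against Day21 (edgeR adjusted p = 0.026).

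Of the remaining cargo motors, KIF21B rose most firmly. KIF21B, a dendritic and axonal motor that also limits microtubule growth, had 2.82, 2.92 and 1.63 CPM on Day0, 2.83, 3.54 and 3.47 CPM on Day21, and 32.3, 18.4 and 45.7 CPM on Day42. The groups did not overlap, and the rise over Day21 was 3.29 ± 0.59 (edgeR adjusted p = 0.0049), called in 17 of 17 alternatives. Its paralog KIF21A had 21.9, 22.9 and 29.8 CPM on Day0, 73.0, 45.9 and 45.1 CPM on Day21, and 93.2, 101 and 9.57 CPM on Day42. In KIF21A the Day42 libraries straddled those of both earlier days, and no comparison was called with all libraries. Without Day42 replicate 3, KIF21A was higher on Day42 than on Day0 by 1.96 (edgeR adjusted p = 0.0015). KIF13A and KIF13B, carriers of endosomal cargo, stayed under 7.41 and 5.59 CPM in every library, were at 0.0949 and 0 CPM in Day42 replicate 3, and were not called.

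Among the light chains, which link kinesin-1 to its cargo, KLC1 changed and the others did not pass the test against Day21. KLC1 had 53.4, 55.6 and 69.2 CPM on Day0, 145, 123 and 103 CPM on Day21, and 811, 581 and 578 CPM on Day42. The days did not overlap, and the rise over Day21 was 2.41 ± 0.24 (edgeR adjusted p = 0.00059), called in 17 of 17 alternatives. The Day21 level lay above that of Day0 by 1.06 ± 0.23 (edgeR adjusted p = 0.051), which missed the threshold and passed it without Day42 replicate 3 (edgeR adjusted p = 0.024). The KLC1 span on chr14 overlaps 6 annotated models on its own strand, APOPT1 among them, and the counting could have divided or shared their reads. Per length, KLC1 took 36.6% to 66.1% of light chain FPKM on Day0, 61.5% to 75.1% on Day21 and 89.0% to 98.1% on Day42. KLC2 was uneven within every day, at 0.799 to 17.3 CPM on Day0, 6.07 to 21.7 CPM on Day21, and 0 to 11.2 CPM on Day42. KLC3 was measurable on Day0 alone, at 2.42, 2.03 and 4.70 CPM, with 0, 0 and 0.145 CPM on Day21 and no count on Day42. Relative to Day0 it was at least 20.9-fold lower by Day42 (edgeR adjusted p = 0.019), a call lost without Day0 replicate 1 or 3 (edgeR adjusted p = 0.050 and 0.051).

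Set against each other per length, the cargo and mitotic motors changed places as the larger part of kinesin RNA. The ratio of summed cargo to summed mitotic FPKM was 0.594, 0.503 and 0.575 in stem cells of Day0. It was 0.711, 0.677 and 0.699 in progenitors of Day21, and 21.8, 17.4 and 8.93 in the neurons of Day42. The mitotic motors made up 58.0% to 61.8% of the FPKM of all 44 genes on Day0, 52.4% to 54.1% on Day21 and 3.14% to 7.02% on Day42. The cargo motors made up 31.1% to 34.9%, 36.7% to 37.3% and 62.7% to 73.1% on those days, and the light chains 2.28% to 4.58%, 2.93% to 4.71% and 16.1% to 18.6%. Within a library these shares do not depend on how libraries are scaled, and the days did not overlap in the mitotic share. Day42 replicate 3 had the lowest of the 3 Day42 ratios and the fewest genes with a count. The size and order of the Day42 ratios rest on KIF22. With KIF22 left out, a choice made after its values were seen, the ratio was 0.777 to 0.956 on Day0, 1.05 to 1.09 on Day21, and 133, 56.4 and 1248 in Day42 replicates 1, 2 and 3, so that replicate 3 had the highest. Most of the cargo sum came from few genes: on Day42 the mean was 64.9 ± 5.18 FPKM for KIF5B, 39.8 ± 12.3 for KIF3A, 17.3 ± 0.625 for KIF1A and 13.4 ± 7.07 for KIF5C (SD, n = 3 each).

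**Figure D4:**
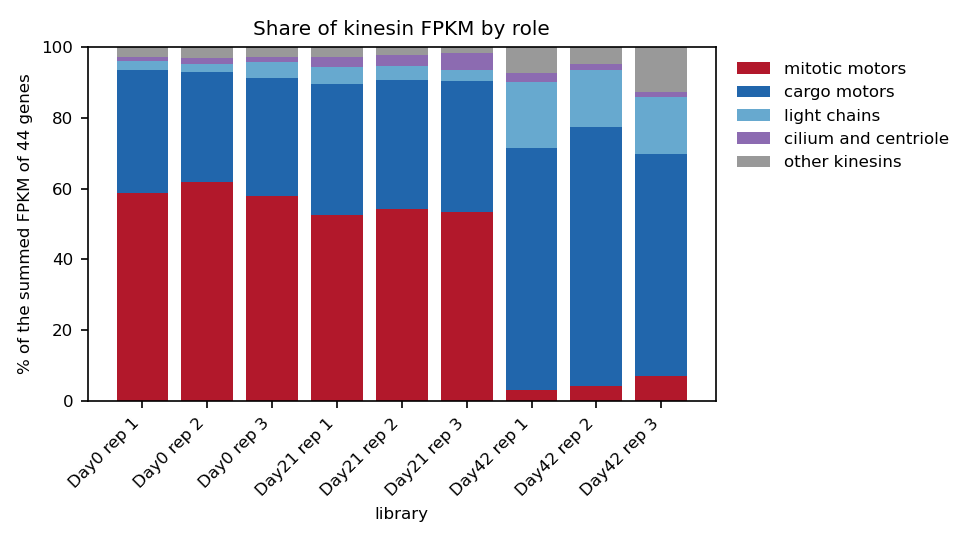
Share of the summed FPKM of the 44 kinesin genes taken by each role (y axis, percent) in each of the 9 libraries (x axis, 3 per day). The mitotic part fills 52.4% or more of every bar on Day0 and Day21 and at most 7.02% on Day42, where cargo motors and light chains fill most of the bar.

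Of the 6 cilium and centriole kinesins, 5 were low in every library and KIF9 was not. KIF24, which keeps the mother centriole from growing a cilium, had 2.44, 1.69 and 1.86 CPM on Day0, 1.74, 2.47 and 1.75 CPM on Day21 and no count on Day42. It was called lower on Day42, at least 13.6-fold against Day21 (edgeR adjusted p = 0.0026) and also against Day0 (edgeR adjusted p = 0.0020). KIF9, a motor of motile cilia, had 7.84, 14.8 and 7.62 CPM on Day0, 36.2, 33.8 and 59.7 CPM on Day21, and 27.4, 13.3 and 14.7 CPM on Day42. The Day21 libraries were the highest, by 2.10 ± 0.52 over Day0 (edgeR adjusted p = 0.059), and passed with the libraries of these 2 days alone (edgeR adjusted p = 0.0051). KIF27, KIF6, KIF7 and KIF19 were at 8.66 CPM or less in every library and were not called in any comparison. KIF6 on Day42 came from replicate 2, at 8.23 CPM, with 0.0384 and 0.0237 CPM in the others.

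Of the other kinesins, KIF2A, KIF26B and KIFC3 rose. KIF2A, a microtubule depolymerase that works at spindle poles and also restrains axon branching in mouse, had 47.2, 59.5 and 50.7 CPM on Day0, 53.4, 39.2 and 40.9 CPM on Day21, and 162, 85.6 and 259 CPM on Day42. Its rise over Day21 was 1.92 ± 0.41 (edgeR adjusted p = 0.0095), lost without Day21 replicate 2 (edgeR adjusted p = 0.050), and its rise over Day0 was lost without Day0 replicate 1 (edgeR adjusted p = 0.059). KIF2C, its relative among the mitotic motors, fell at the same step. KIF26B had 0, 0 and 0.0652 CPM on Day0, 2.96, 2.05 and 1.12 CPM on Day21, and 13.9, 9.28 and 36.8 CPM on Day42. KIFC3, a minus-end motor of cell junctions, had 0.358, 0.272 and 0.848 CPM on Day0, 6.11, 4.0 and 1.75 CPM on Day21, and 9.70, 14.5 and 18.5 CPM on Day42. In both genes the days did not overlap, and Day42 was called higher than Day0 (edgeR adjusted p = 0.0035 and 0.0042), in 15 of 15 and 17 of 17 alternatives. KIFC3 was higher on Day42 than on Day0 by 4.84 ± 0.88 on the log2 scale, and 4 counts in 1 library are all that KIF26B had on Day0. KIF16B, KIF1C, KIF26A and KIFC2 were not called in any comparison, and KIF25 had at most 0.384 CPM in any library and was not tested.

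Adaptors and the opposing motor give the setting of the cargo kinesins. Of 22 adaptors and regulators measured, 5 were called higher and 1 lower on Day42 than on Day21, and 7 higher and 1 lower than on Day0. Of all genes tested, 6.52% were called higher and 19.7% lower than on Day21, and 8.82% higher and 23.4% lower than on Day0. KIFAP3 was given above. PPFIA2, a scaffold of the presynapse that binds KIF1A, had 4.95, 5.01 and 3.15 CPM on Day0, 1.02, 0.840 and 1.39 CPM on Day21, and 34.6, 34.8 and 25.4 CPM on Day42. Its Day42 level was higher than on Day21 by 4.86 ± 0.59 (edgeR adjusted p = 0.0013). SYBU, a link between kinesin-1 and syntaxin cargo, was called against Day0 at 33.9, 45.9 and 2.92 CPM on Day42, against 0, 0.653 and 0.620 CPM on Day0 (edgeR adjusted p = 0.025). FEZ1, a kinesin-1 adaptor, rose earlier, with 137, 133 and 127 CPM on Day21, against 45.1, 42.7 and 50.5 CPM on Day0 (1.52 ± 0.21, edgeR adjusted p = 0.0097). DISC1 was the adaptor that was lower, with no count on Day42, at least 2.68-fold below its 0.392, 0.511 and 0.271 CPM on Day21.

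Of 22 dynein and dynactin genes, which drive transport toward the cell body, 6 were called higher and 1 lower on Day42 than on Day21 (all genes tested: 6.52% higher and 19.7% lower). Against Day0, 11 of them were called higher and 1 lower (all genes tested: 8.82% higher and 23.4% lower). DYNC1I1, the neuronal intermediate chain, had 0.403, 0.962 and 0.864 CPM on Day0, 3.99, 3.62 and 2.33 CPM on Day21, and 42.6, 76.8 and 181 CPM on Day42 (4.92 ± 0.70 over Day21, edgeR adjusted p = 0.0023). DYNLT3, a light chain, was at 168, 123 and 256 CPM on Day42, against 10.3, 13.9 and 14.8 CPM on Day21. BICD1, a dynein adaptor, was at 16.3, 33.3 and 24.4 CPM on Day42, against 4.56, 3.96 and 5.60 CPM on Day21. DCTN3 and ACTR1A, both of the dynactin complex, were the genes of this list called higher on Day21 than on Day0, by 2.14 ± 0.32 and 1.39 ± 0.22. DYNLL1, a light chain shared by many complexes, was the gene that fell, to 349 ± 66.7 CPM on Day42, against 1026 ± 128 CPM on Day21 (SD, n = 3 each; edgeR adjusted p = 0.0014).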

How the data were processed

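RNA sequencing libraries were made from about 10 ng of total RNA with a low-input kit, per the labels' protocols. Per the submitters' processing notes, tools were cutadapt 1.9 and FastQC, and the build was GRCh38. Which aligner, counter, annotation and strand setting were used was not given in the sources used here. Per the file headers, the table has raw counts for each gene in each library. It also has FPKM, which the authors derived with library totals not stated. Counts pile up at multiples of 4 (counts of 4 were 2.17 times as frequent as their neighbors), so a count is not an independent fragment, and the limit for a count of 0 was set at 3 such steps, 12 counts per library. That limit covers counting error only and averaged 0.227, 0.203 and 0.146 CPM on Day0, Day21 and Day42.

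Genes were filtered with filterByExpr, scaled by TMM and fitted with 1 mean per day over all 9 libraries by edgeR 4.0.16 (quasi-likelihood test, R 4.3.3), with adjustment over 20156 genes. Alternatives were median-of-ratios scaling, no filter, a fit to only the compared days, a block on replicate number, each library left out, DESeq2 1.42.0, and limma 3.58.1 (voom with quality weights, and log2(FPKM + 1) or log2(FPKM + 0.1) for genes reaching FPKM 1 in 3 libraries). The fit was tested on simulated data drawn with the same spread for every library. Those data lacked the wider spread of the Day42 libraries, so the test does not show how the fit performs there. Tables and figures were made in Python 3.11.15 with pandas 2.3.3, matplotlib 3.10.9 and numpy 2.4.6. A log2 fold change or difference is given as the later over the earlier day with its standard error. Bounds use the mean limit of the day at 0.

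Members, role lists, partner lists and tests were chosen with earlier results of these data known. Values per library were to be printed for KIF11, KIF5C, KIF1A, the 6 called members with the largest change per role and comparison, the 2 most expressed of a role with none called, and the 3 called with the largest change per partner list. Others, such as KIF14, KIF15, KIF20B, KIF3B, KIF3C, KIF21A, KIF9, CENPE, PRC1 and TPX2, were chosen after their values were seen. Of the 44 members, 9 overlap a GENCODE release 29 model on the same strand and 22 on the other strand alone, and their counts may be shared. KIF2B was not analysed here.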

Additional observations from a re-analysis of the deposited data

How the results depend on the processing

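Between Day21 and Day0 the counts depend on the fit. Kinesin genes called higher (1 in the reported fit) were 0 with no filter, 8 with only the 2 days, 0 with the replicate block, 5 with DESeq2 and 8 with voom. Those called lower (0) were 4 with only the 2 days, 2 with DESeq2 and 3 with voom. All genes called (504) were 5009 with only the 2 days, 109 with the block, 2952 with DESeq2, 6925 with voom, and 1316 and 1325 with limma on FPKM at pseudocounts of 1 and 0.1. The block also moved all genes called to 2420 of 5295 for Day42 against Day21 and to 3710 of 6499 for Day42 against Day0. Libraries with the same number had deviations from their day's mean correlated between −0.225 and 0.0266, and differently numbered libraries between −0.182 and 0.301. With 3 libraries per day this check cannot settle whether the numbers pair the libraries. Under the replicate block KIF1B, KIF4B, KIF5A, KIF2A and KLC3 lost calls. Leaving out each library gave 133 to 2894 genes, 0 to 6 kinesin genes higher and 0 to 1 lower for Day21 against Day0. It gave 3301 to 7275 genes, 3 to 8 higher and 10 to 14 lower for Day42 against Day21, and 4617 to 8884 genes, 7 to 14 higher and 10 to 15 lower for Day42 against Day0. Most of the upper ends came without Day42 replicate 3.

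Uncalled signs turned into calls the other way where 1 Day42 library held the reads. Against Day21, the log2 fold change of Day42 ran between −8.28 and 1.34 for KIF17 and between −4.50 and 2.42 for KIF6 over the left-out libraries, and against Day0 between −4.79 and 2.13 for KIF6, with each low end without Day42 replicate 2. For KIF13B against Day0 it ran between −5.19 and 0.66, with the low end without Day42 replicate 1. Median-of-ratios scaling moved the median gene by −0.03 to 0.04 on the log2 scale. Choosing rows by mean FPKM gave the same 44 of 44 members. The small Day42 gene counts limit what can be said of low genes there. For counting error alone, a count of 0 allows up to 0.154 CPM in a library. A 0 can also stand beside many counts in another Day42 library, as for KIF3C at 66.2, 29.8 and 0 CPM.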
